A study of Mus musculus with 8 samples.

Results

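Carbonic anhydrase genes were followed in sorted wild-type (WT) and cancer cells of murine small intestine organoids that had been cultured apart or together. The 6 genes Car2, Car4, Car8, Car9, Car12 and Car13 were chosen by their symbols, and the group was selected on measured values, namely a higher Car2 read count in mixed WT cells and a low one in cancer cells. The read count table listed 5 of the 6 among its 13420 genes, and Car4 was not analysed here. Of the 5, Car2, Car9 and Car13 passed the filter on low counts with 5264 genes in all, while Car8 and Car12 did not. Because Car2 was picked for its pattern, its values in every comparison are a description without a test. For Car9 and Car13, which were taken up with it, a test is given only for mixed against pure cancer cells.

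WT organoids had the genotype mTmG, a membrane-bound tomato reporter, on C57BL/6, and per the study's methods came from mice that also carry Rosa26-CreERT2. Cancer organoids had the genotype Villin-CreERT2Apcfl/flKrasG12D/WTTr53fl/R172H on C57BL/6 (F6), in which the villin promoter drives an inducible Cre in intestinal epithelium, and they carried the green reporter Dendra2. Cells were cultured pure or mixed at 2 WT parts to 1 cancer part, all in the same medium with EGF, Noggin and R-spondin1, and were sorted by reporter on day 3. Each of the 4 groups had 2 libraries, named by well: pure WT cells filled wells A01 and A05, mixed WT cells A02 and A06, pure cancer cells A03 and A07, mixed cancer cells A04 and A08. The labels do not say whether the libraries of a group came from separate cultures, so the p-values measure only the spread between these libraries, which may be technical.

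Carbonic anhydrases convert carbon dioxide and water into bicarbonate and protons and back. In the intestine the reaction serves salt absorption, bicarbonate secretion and control of cell pH. Car2 and Car13 work in the cytosol, and Car4 is anchored to the outer face of the apical membrane. Car9 and Car12 span the membrane and act outside the cell, with Car9 known as a target of hypoxia-inducible factor. Car8 lacks the catalytic activity and binds an IP3 receptor.

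Depth set how much each value can carry. The libraries held between 73109 reads (A02) and 4733121 reads (A04) on genes, and the share of tested genes at 0 reads ran from 0.646% in A04 to 26.1% in A02. Levels are given as CPM, reads scaled to a common library size over the tested genes with TMM normalization. A count of 0 allows up to 3 reads, or 39.3 CPM in A02, 15.7 in A03, 15.6 in A08 and between 0.587 and 8.98 in the other libraries. Intervals and limits of this kind take every read as a separate count and leave out the spread between libraries. Reads include amplification copies, at 1.92 reads per tagged molecule for Car2 and 2.78 for Car12. The intervals are therefore too narrow even for counting error. Reads from the 3′ end are not compared between genes. In bulk RNA, fewer cells of a type and less RNA per cell cannot be told apart.

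The members lie on 4 chromosomes of GRCm38 (GENCODE). Car13 (ENSMUSG00000027555.8) lies on the plus strand at chr3:14641727-14663002 and Car2 (ENSMUSG00000027562.12) on the plus strand at chr3:14886273-14900770. Car1 and Car3 lie between them and were not among the genes in the table. Car9 (ENSMUSG00000028463.14) lies on the plus strand at chr4:43506966-43513729, overlapped by the antisense gene Gm12454, and Car8 (ENSMUSG00000041261.9) on the minus strand at chr4:8143362-8239041. Car12 (ENSMUSG00000032373.15) lies on the plus strand at chr9:66713686-66766845. Each is protein coding. Of the windows of 50 bases in the last 500 bases of their transcripts, Car2, Car9, Car12 and Car13 shared 0 with any other gene, and Car8 shared 3 of 451.

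The promoter of Car9 is shown because the gene is a known hypoxia target and its level is set beside other hypoxia-inducible genes. RefSeq promoters (GRCm38.p6, 250 bases before to 50 after the start) were given for 3 of the 6 genes, Car4, Car9 and Car12. They were searched on both strands for ACGTG, the core of the hypoxia response element, and for TGANTCA, the AP-1 motif. The Car9 promoter held ACGTG once, on the minus strand 18 bases before the RefSeq start at chr4:43507026, and TGAGTCA once, 77 bases before it. ACGTG was present in 19.6% of 32851 promoters and TGANTCA in 7.81%. The Car4 promoter held ACGTG once and no AP-1 motif, and neither motif was found in that of Car12. In the stretches below, from the plus strand, capitals mark the AP-1 motif in the first and the minus-strand ACGTG (read as CACGT) in the second, which lies inside the longer GENCODE gene.
Car9 chr4:43506846-43506965: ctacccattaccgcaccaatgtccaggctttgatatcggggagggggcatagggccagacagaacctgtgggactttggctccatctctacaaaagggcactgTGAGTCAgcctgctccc
Car9 chr4:43506996-43507025: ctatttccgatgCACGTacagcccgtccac
A match describes these letters only, and binding was not measured.

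Of the cytosolic enzymes, Car2 was high in mixed WT cells and low in the other 3 groups. Pure WT cells held 22.0 CPM (A01) and 8.99 CPM (A05), and mixed WT cells 170.4 CPM (A02) and 165 CPM (A06). Pure cancer cells held 5.25 CPM (A03) and 8.98 CPM (A07), and mixed cancer cells 11.9 CPM (A04) and 36.3 CPM (A08). Both mixed WT libraries therefore lay above the other 6, and the next library below them was mixed cancer A08. The mean was 168 ± 3.55 CPM in mixed WT cells and 15.5 ± 9.17 CPM in pure WT cells (SD, n = 2). In mixed cancer cells it was 24.1 ± 17.2 CPM and in pure cancer cells 7.11 ± 2.64 CPM (SD, n = 2).

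The reads behind Car2 were few. The pure WT libraries held 24 and 16 reads, the mixed WT libraries 13 and 73, the pure cancer libraries 1 and 3, and the mixed cancer libraries 61 and 7. Counted as molecule barcodes, which leave out amplification copies, these were 13 and 10, 8 and 34, 1 and 2, and 31 and 4. The pure cancer value thus rests on 4 reads and 3 barcodes. In A03 and A07 Car2 was at or under the limit that a count of 0 allows, so its order against the other low groups could not be settled at this depth.

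**Figure D1:**
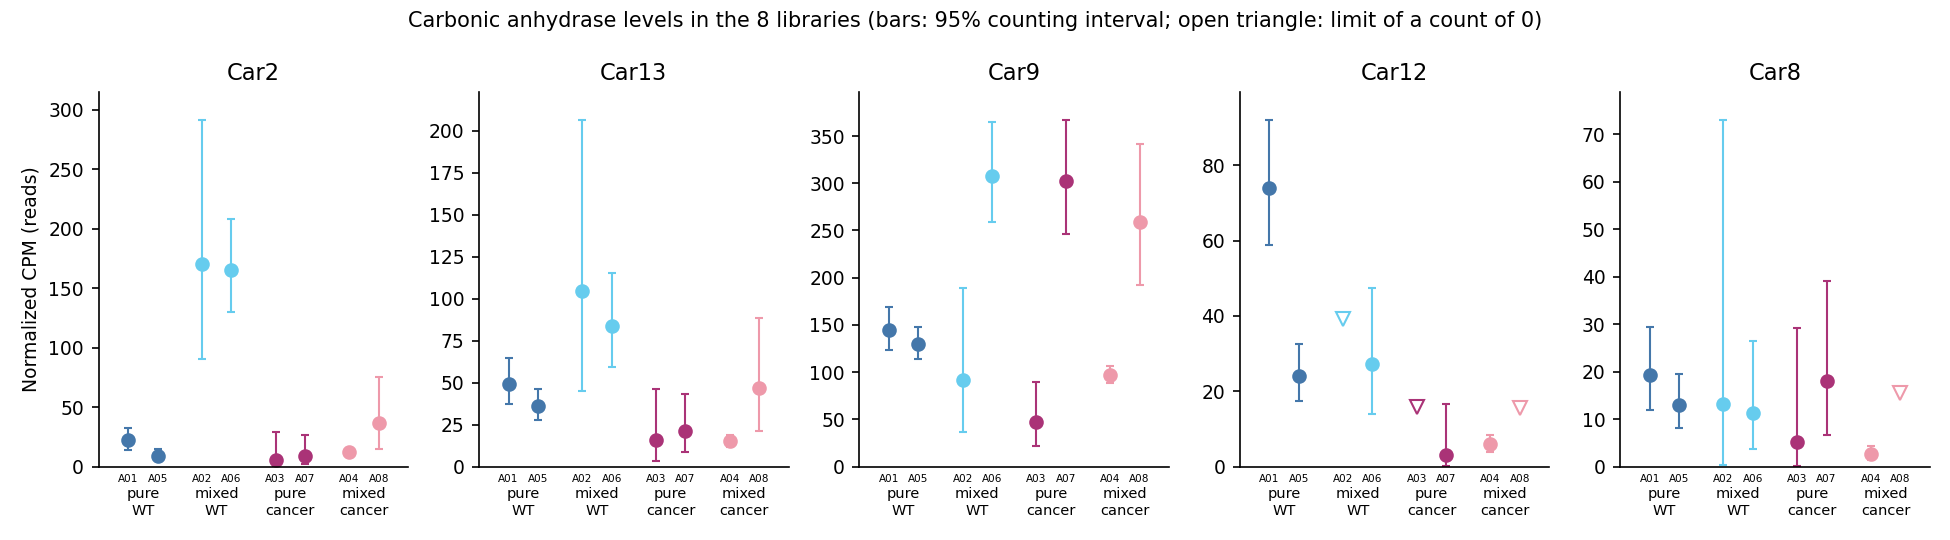
Level of the 5 carbonic anhydrases in each of the 8 libraries, in TMM-normalized CPM on a linear axis, with the 95% counting interval as bars and an open triangle at the limit of a count of 0 where a library had no read. Car2 stands at 170.4 and 165 CPM in mixed WT and at most 36.3 CPM elsewhere, while the libraries of a group lie far apart for Car9.

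As a description of the pattern that chose the gene, Car2 was higher in mixed than in pure WT cells by a log2 fold change of 3.46 (SE 0.754, edgeR). Over the reads pooled by group the ratio was 11.9, with a 95% counting interval of 8.11 to 17.8. That interval is too narrow, since the pooled reads were 42 barcodes in mixed WT and 23 in pure WT. It was the only carbonic anhydrase of the 3 called at an adjusted p under 0.05 in this comparison, where 0.741% of all tested genes were called, and nothing is read from that count. The log2 fold change was 4.21 without A01 and 2.96 without A05, and without A01, A05 or A06 the call was lost. Between mixed cancer and mixed WT cells Car2 was lower by a log2 fold change of -3.13 (SE 0.801), again the only call of 3, against 6.42% of all tested genes. That call was lost without A04 or A06. Between pure cancer and pure WT cells the log2 fold change was -1.003 (SE 0.988), with 0 of 3 called against 9.95% of all tested genes. The 2 mixing changes of Car2 differed by 2.12 (SE 1.34, log2, WT minus cancer), and 0 of 3 members were called for this difference against 0.0760% of all tested genes.

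Car13, the other cytosolic enzyme, was highest in mixed WT cells, followed by pure WT cells, and low in cancer cells. Pure WT cells held 49.4 CPM (A01) and 36.0 CPM (A05), and mixed WT cells 105 CPM (A02) and 83.8 CPM (A06). Pure cancer cells held 15.7 CPM (A03) and 21.0 CPM (A07), and mixed cancer cells 15.1 CPM (A04) and 46.7 CPM (A08). Both mixed WT libraries lay above all others, both pure cancer libraries lay below both pure WT libraries, and the mixed cancer libraries overlapped both pure groups. The lowest library was A04, and A03, at its limit of a count of 0, lay next to it, so the order of the cancer groups could not be settled. Its reads were 54 and 64 for pure WT, 8 and 37 for mixed WT, 3 and 7 for pure cancer, 77 and 9 for mixed cancer. In A02 the 8 reads were 2 barcodes, so that library adds little to the mixed WT level.

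Described without a test, the log2 fold change of Car13 was 1.11 (SE 0.708) in mixed against pure WT cells, -1.18 (SE 0.791) in pure cancer against pure WT cells and -1.85 (SE 0.781) in mixed cancer against mixed WT cells. None of the 3 was called. Counting transcripts in place of reads added a call for Car13 in mixed cancer against mixed WT cells. That setting called 391 genes in all there, against 338 with reads. Car2 and Car13 were the 2 of 3 members with both mixed WT libraries above both pure WT libraries, an order found for 15.0% of all tested genes. From this count nothing is read, since the choice used the contrast.

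**Figure D2:**
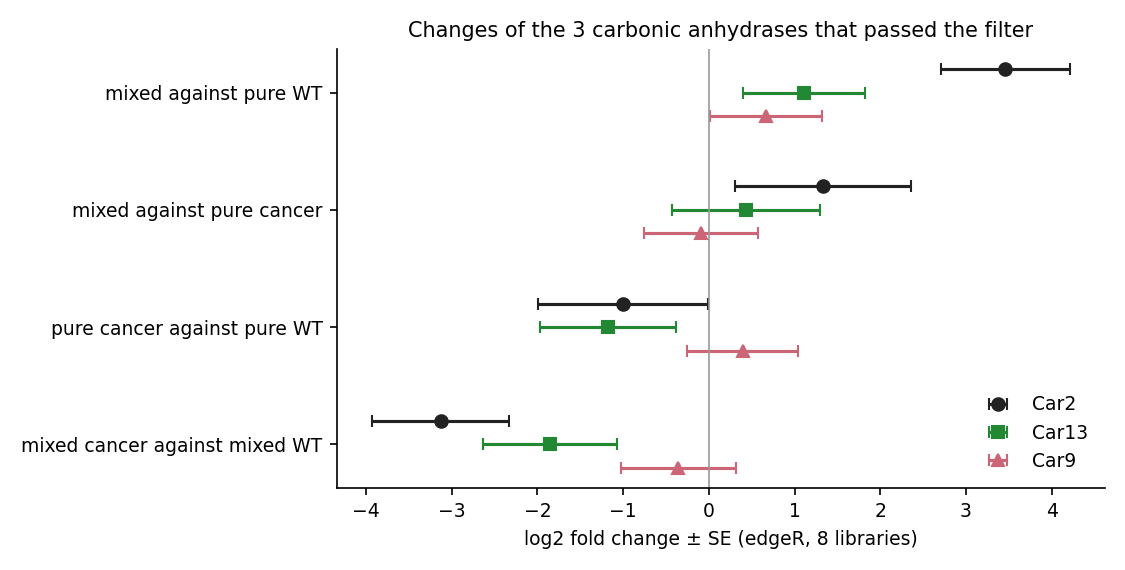
log2 fold change of Car2, Car13 and Car9 in 4 comparisons, with the standard error (edgeR, 8 libraries in 1 fit) as bars. Car2 lies farthest from 0 in mixed against pure WT (3.46) and in mixed cancer against mixed WT (-3.13), and the points for mixed against pure cancer are 1.33 for Car2, 0.43 for Car13 and -0.09 for Car9.

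Mixed against pure cancer cells asks whether the cancer cells changed when grown beside WT cells. Car2, described without a test since it was picked for being low in cancer cells, had a log2 fold change of 1.33 (SE 1.03). Both mixed cancer libraries lay above both pure cancer libraries for Car2, an order found for 13.8% of all tested genes, and for neither Car9 nor Car13. Car13 had a log2 fold change of 0.43 (SE 0.859, adjusted p = 1, edgeR, Benjamini-Hochberg over 5264 genes) and Car9 one of -0.09 (SE 0.665, adjusted p = 1). With edgeR 0 of these 2 were called, and 0 had an unadjusted p under 0.05. Called genes made up 0.00% of all tested genes in this comparison, with 69 at an unadjusted p under 0.05. DESeq2 called 0 of 5 members. Standard errors of 0.665 and 0.859 on the log2 scale leave room for changes of over 2-fold in either direction.

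Of the membrane enzymes, Car9 had 1188 reads over the 8 libraries, and its level differed widely between libraries of the same group. Pure WT cells held 145 CPM (A01) and 129.8 CPM (A05), and mixed WT cells 91.8 CPM (A02) and 308 CPM (A06). Pure cancer cells held 47.2 CPM (A03) and 302 CPM (A07), and mixed cancer cells 97.1 CPM (A04) and 259 CPM (A08). The groups overlapped in every comparison. The pure WT libraries differed by 1.11-fold, the pure cancer libraries by 6.40-fold, the mixed WT libraries by 3.36-fold and the mixed cancer libraries by 2.67-fold.

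The higher libraries were A06, A07 and A08. The molecule barcodes, over libraries of unequal depth, were 79 and 87 in pure WT, 4 and 64 in mixed WT, 8 and 37 in pure cancer, 156 and 26 in mixed cancer. WT cells averaged 137 ± 10.4 CPM when pure and 199.9 ± 153 CPM when mixed, and cancer cells 175 ± 180.4 CPM when pure and 178 ± 115 CPM when mixed (SD, n = 2). The 4 means differed by less than the SD of every group other than pure WT.

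The log2 fold change of Car9 was 0.66 (SE 0.654) in mixed against pure WT cells and 0.39 (SE 0.648) in pure cancer against pure WT cells. In mixed cancer against mixed WT cells it was -0.36 (SE 0.670). Without A07 the value was -1.63 in pure cancer against pure WT, where the median of all tested genes was -0.23. In mixed against pure cancer it was 1.88 without A07 and 0.53 without A04, with medians of 0.22 and -0.03. Without A06 it was -0.67 in mixed against pure WT and 0.94 in mixed cancer against mixed WT, but the median of all tested genes then stood at -0.73 and 0.67, so these values lay near a shift of all genes.

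The counts of Car12, the other membrane enzyme, came mostly from pure WT cells. Pure WT cells held 81 reads (A01) and 43 (A05), mixed WT cells 0 (A02) and 12 (A06), pure cancer cells 0 (A03) and 1 (A07), and mixed cancer cells 30 (A04) and 0 (A08). The corresponding barcodes were 29 and 17, 0 and 4, 0 and 1, and 9 and 0. In CPM, pure WT cells held 74.1 and 24.2, and the libraries with reads elsewhere held 27.2 in A06, 2.99 in A07 and 5.87 in A04. Pure WT lay above pure cancer in both libraries, and the 0 in A02, with its limit of 39.3 CPM, says little about mixed WT.

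Pooled by group, Car12 in pure cancer cells was 0.0441 of the level in pure WT cells, with a 95% counting interval of 0.00111 to 0.251 (1 read against 124). Mixed WT cells held 0.537 of the pure WT level (0.270 to 0.972), and mixed cancer cells 0.244 of the mixed WT level (0.121 to 0.523). These intervals leave out the difference between libraries, which was 3.07-fold between the pure WT libraries. They also take amplification copies as separate counts. The reads pooled were 46 barcodes in pure WT and 4 in mixed WT, so a difference between these groups could not be settled. Car12 was too low for the filter. With no filter, or with only the 4 libraries of the comparison, it was tested and called lower in pure cancer than in pure WT cells. Those settings called 524 and 583 genes in all. DESeq2 tested Car12 too and did not call it. Nothing is read from these calls, since the choice used the contrast and pure cancer cells held 1 read.

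Car8, the member without catalytic activity, had few reads outside pure WT cells. WT cells held 21 and 23 reads when pure and 1 and 5 when mixed, and cancer cells 1 and 6 reads when pure and 13 and 0 when mixed. The 6 reads of A07, worth 18.0 CPM, carried 1 barcode and so came from 1 tagged molecule. Pure WT cells held 19.2 CPM in A01 and 12.9 in A05, mixed WT cells 13.1 in A02 and 11.3 in A06, and A04 held 2.54. The pooled ratio of mixed to pure WT was 0.756, with a 95% counting interval of 0.263 to 1.78, so no difference in WT cells was detectable at this depth. Of the IP3 receptors and their partners 2 of 4 genes were tested and 0 called in each comparison, and Itpr3, a receptor of this family, had a log2 fold change of 0.88 (SE 0.697, adjusted p = 0.756, edgeR) in mixed against pure WT cells.

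The rest of the family was scarcely detected. Of the 10 other carbonic anhydrase genes looked for, 6 were in the table and 0 passed the filter. Car5b, a mitochondrial enzyme, had 12 reads in A04 and 1 in A07. Car15 had 6 reads in A01, 3 in A04 and 7 in A07, and the 7 reads of A07 were 1 barcode. Car6 had 7 reads over all libraries and Car5a, Car7 and Car11 had 1 each.

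Transporters that move bicarbonate, protons and lactate in step with carbonic anhydrases were listed together with partner proteins. Most were below the filter, at 7 of 32 listed genes tested. The 7 were the transporters Slc4a2, Slc16a1 and Slc16a3 and the partners Slc9a3r1, Bsg, Ahcyl1 and Ahcyl2. Ahcyl1 was also counted among the IP3 receptors and their partners. Between mixed and pure WT cells 0 of 7 were called, and their median log2 fold change was 0.35, beside -0.10 for all tested genes. Between mixed and pure cancer cells 0 of 7 were called too, with a median of -0.04 beside 0.03. Between pure cancer and pure WT cells Bsg, the chaperone of lactate transporters, was the 1 gene called, and it rose. Bsg stood at 1252 and 1219 CPM in pure WT and at 4283 and 5420 CPM in pure cancer, a log2 fold change of 1.97 (SE 0.438, adjusted p = 0.00375, edgeR). Bsg held at least 197 barcodes in every library other than A02, and in A04 it reached the highest barcode count of any gene. Barcode counts gave it a log2 fold change of 1.94 (SE 1.28) and no call. Slc16a3, a lactate exporter, had a log2 fold change of 1.34 (SE 0.763, adjusted p = 0.342, edgeR) and Slc9a3r1, a scaffold of the brush-border sodium-proton exchanger, one of -0.36 (SE 0.590, adjusted p = 0.812) in the same comparison.

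Hypoxia-inducible genes, among which Car9 is usually counted, were set beside it. Without Car9, 31 of 36 listed genes were tested. Between mixed and pure WT cells 2 of 31 rose and 0 fell, where 0.741% of all tested genes were called. Their median log2 fold change was 0.76, beside -0.10 for all tested genes, and 23 of 31 values lay above 0. Ero1l, an oxidase of the endoplasmic reticulum, went from 63.2 and 39.9 CPM in pure WT to 315 and 217 CPM in mixed WT (log2 fold change 2.34, SE 0.502, adjusted p = 0.0284, edgeR). Bhlhe40, a transcriptional repressor, had a log2 fold change of 2.21 (SE 0.494, adjusted p = 0.0294, edgeR). The Ero1l call was lost without A05 or A06, and that of Bhlhe40 with no filter or without A01, A02, A05 or A06.

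In mixed against pure cancer cells 0 of 31 hypoxia-inducible genes were called, and the median was 0.07 beside 0.03 for all tested genes. Between pure cancer and pure WT cells 7 rose and 0 fell, where 9.95% of all tested genes were called. The median was 1.10 beside -0.05 for all tested genes. The 7 were Ero1l, Bnip3, Egln3, Vegfa, Adm, Bhlhe40 and Pgk1. Bnip3, a mitophagy receptor, stood at 79.6 and 86.0 CPM in pure WT and 898 and 446 CPM in pure cancer (log2 fold change 3.01, SE 0.498, adjusted p = 0.00021, edgeR). Vegfa, the vascular growth factor, had a log2 fold change of 2.87 (SE 0.679, adjusted p = 0.00645) and Pgk1, a glycolytic kinase, one of 1.48 (SE 0.376, adjusted p = 0.0111). Between mixed cancer and mixed WT cells the list's median was 0.76 beside 0.12 for all tested genes, with 24 of 31 values above 0. There 6.42% of all tested genes were called. In mixed cancer against mixed WT cells Pgk1 was the 1 gene called (log2 fold change 1.36, SE 0.378, adjusted p = 0.0276), a call kept under 9 of 16 alternatives and left-out libraries. For pure cancer against pure WT, the calls of Ero1l, Bnip3 and Egln3 were kept under all 16. Vegfa and Pgk1 lost theirs without A01, Adm and Bhlhe40 without A01, A05 or A07, and Pgk1 also without A05 or with barcode counts.

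**Figure D3:**
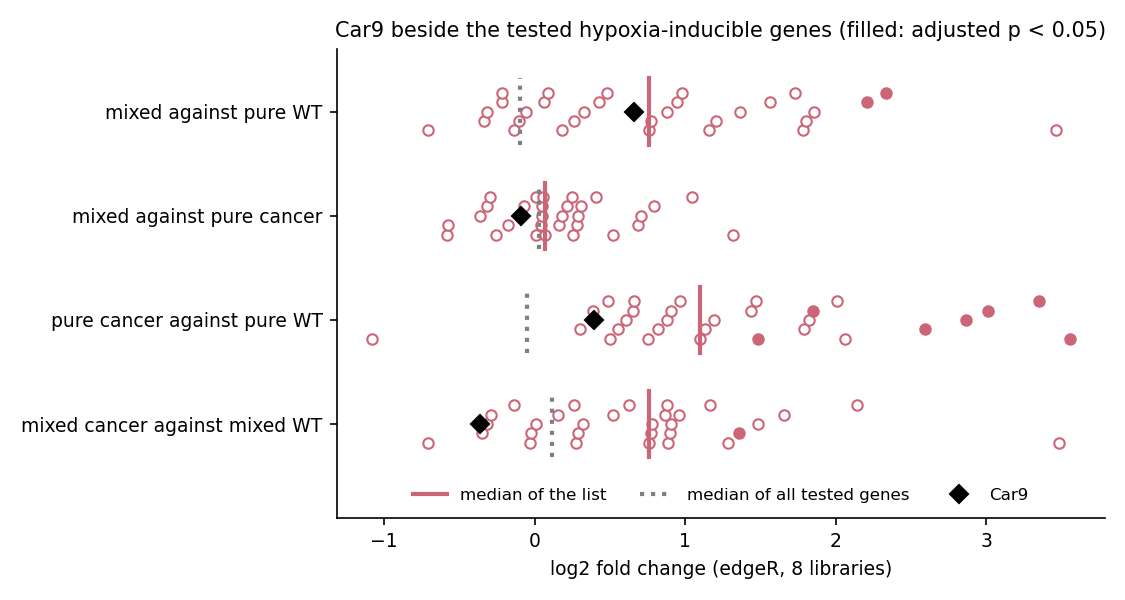
log2 fold change of Car9 (black diamond) and of the 31 tested hypoxia-inducible genes (circles, filled where the adjusted p was under 0.05) in 4 comparisons, with the median of the list as a solid line and that of all tested genes as a dotted line. In pure cancer against pure WT the list's median is 1.10, Car9 is at 0.39, and 30 of the 31 circles lie above 0.

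The labelled tissue was checked against marker genes. All 8 epithelial markers were in the table, with a summed level of 4529 to 15444 CPM, the highest in A06. Red blood cells, whose main proteins include carbonic anhydrases, had 0 of 10 markers in the table. Fibroblast markers had 2 of 8, immune markers 3 of 8 and endothelial markers 1 of 6 in the table. Cd68, a macrophage marker, reached 68.8 CPM in A07 and 25.9 in A08, and its part in the results was not tested.

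Absorptive enterocytes are among the intestinal cells known to hold carbonic anhydrases, and 18 of 20 of their markers were in the table. Their summed level was 2019 to 2239 CPM in pure WT and 1966 to 2097 CPM in mixed WT, so it overlapped where Car2 was higher. Between mixed and pure WT cells 0 of 10 tested markers were called, Alpi, the intestinal alkaline phosphatase, having a log2 fold change of 1.06 (SE 0.454, adjusted p = 0.419, edgeR). In cancer cells the sum was 68.8 to 89.2 CPM when pure and 83.0 to 136 CPM when mixed. There 8 of 10 tested markers fell in pure cancer against pure WT cells, among them Alpi, from 450.3 and 376 CPM to 10.5 and 2.99 CPM (adjusted p = 2.7e-06, edgeR). In mixed cancer against mixed WT cells 9 of 10 fell. The part of this list in the levels of the carbonic anhydrases in cancer cells was not tested.

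Stem cell markers summed to 767 to 1113 CPM in pure WT and 511 to 528 CPM in mixed WT, with 0 of 10 tested genes called and a median log2 fold change of -1.34. Paneth cell markers summed to 2183 to 4244 CPM in pure WT and 957 to 1559 CPM in mixed WT, with 0 of 5 tested genes called. Itln1, a lectin of Paneth cells, had a log2 fold change of -1.41 (SE 0.473, adjusted p = 0.234, edgeR). The part of either list in the Car2 values was not tested. Gastric epithelial markers were in the table for 10 of 14 genes. Their summed level was 279.9 to 283 CPM in pure WT and 1573 to 1824 CPM in mixed WT. Of these, 2 of 5 tested genes rose from pure to mixed WT cells. Anxa10, an annexin of gastric epithelium, went from 139 and 67.5 CPM to 1337 and 1312 CPM (log2 fold change 3.69, SE 0.514, adjusted p = 0.00043, edgeR), and Ctse, an aspartic protease, had a log2 fold change of 4.96 (SE 0.820, adjusted p = 0.00359). The Ctse call was lost without A05 or A06. Anxa10 alone made up most of the sum in mixed WT. Gkn3, a gastric mucus peptide, held 46.7 and 141 CPM in pure WT and 0 and 92.9 CPM in mixed WT (log2 fold change -0.64, SE 0.796, adjusted p = 0.866).

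Among defining gastric markers, the mucins Muc5ac and Muc6, Sox2 and the proton pump subunit Atp4b were not among the genes in the table. Tff2, a trefoil peptide of gastric mucus, stood at 94.5 and 311 CPM in pure cancer and at 0 and 4.53 CPM in mixed WT. The gastric sum was 1688 to 1732 CPM in pure cancer, where Car2 was at most 8.98 CPM. Most of that sum was Tff1, another trefoil peptide, at 1564 and 1245 CPM. In mixed WT Tff1 held 91.8 and 233 CPM. Anxa10 held 5.25 and 2.99 CPM in pure cancer. The sums in mixed WT and in pure cancer thus came mostly from different genes and cannot be read as the same pattern. The part of this list in the Car2 values was not tested.

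**Figure D4:**
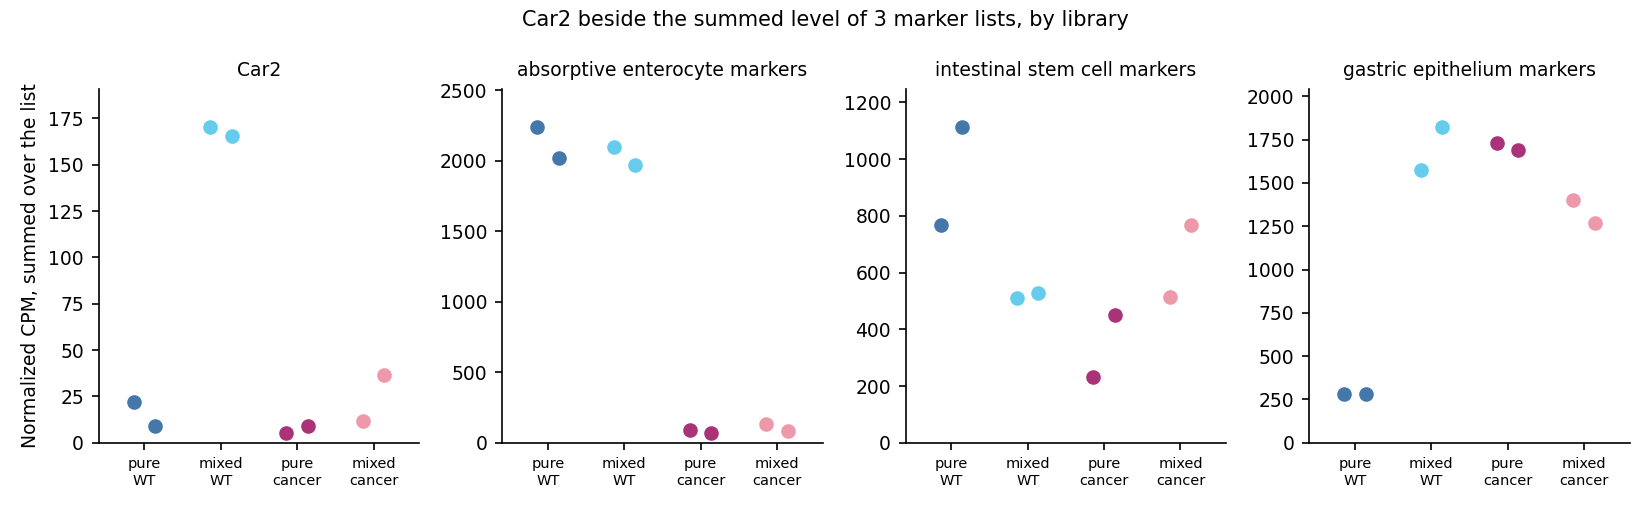
Level of Car2 and summed level of absorptive enterocyte, intestinal stem cell and gastric epithelium markers in each of the 8 libraries, in TMM-normalized CPM on linear axes from 0, 2 points a group. Enterocyte markers lie at 1966 to 2239 CPM in all 4 WT libraries, whereas gastric markers lie at 279.9 to 283 CPM in pure WT and 1573 to 1824 CPM in mixed WT.

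The genes most like each tested member over the 8 libraries were found by Pearson's r of log2 CPM among 2745 genes with a mean of 50 or more reads. The points share library and depth, so the values are a description. For Car2 they were 2610528A11Rik (r = 0.899), Ssu72 (0.876), Wdr45b (0.869), Ncstn (0.848) and Nudt14 (0.839). For Car13 they included Ncstn (0.945), Ckmt1 (0.937), Nipsnap3b (0.934) and Plin3 (0.915). For Car9 they were Cdh1 (0.920), Psme1 (0.911), Kdelr1 (0.905), Itpr3 (0.905) and Gsto1 (0.899). Car2 and Car13 had r = 0.908 with each other, and Car9 had 0.334 with Car2 and 0.339 with Car13.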

How the data were processed

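Bulk mRNA of sorted cells was sequenced by CEL-Seq, which reads the 3′ end, in 8 libraries. Per the paper's methods, BWA placed the reads on the RefSeq transcriptome of mm10, reads with several equal matches were discarded, and featureCounts assigned the rest to genes. The versions of these tools are not given in the sources used here. The authors deposited unnormalized read counts per gene, molecule barcode counts, and estimated counts of transcripts corrected for repeated barcodes. Estimated counts were rounded to whole numbers where tested. The authors' table of mixed against pure WT cells made with DESeq2 1.22.2 (mean, log2 fold change, error and p-value) was not used. A pair of rows that name no mouse gene, at most 5.25e-05% of reads, was left out.

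Read counts were compared with edgeR 4.0.16 (filterByExpr at a minimum count of 10, TMM, 1 quasi-likelihood fit of all 8 libraries, Benjamini-Hochberg adjustment) in R 4.3.3, tested on simulated data. A gene was called at an adjusted p under 0.05. Standard errors are log2 fold changes divided by the root of the F statistic. Levels are CPM over TMM-scaled reads on tested genes. Counting intervals are 95% exact Poisson, or conditional binomial for ratios, on reads with amplification copies left in. Named genes were all members, relatives with 10 or more reads, called or most abundant genes of lists, and the 5 most alike genes per tested member (prior count of 2), of which 1 is not reported here. Members and lists were chosen with earlier results of these data known. Alternatives were transcript or barcode counts, DESeq2 1.42.0, upper-quartile or median-of-ratios factors, a minimum count of 50 or no filter, only the 4 libraries compared, and each library left out. Depth ranged from 73109 to 4733121 reads.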

Additional observations from a re-analysis of the deposited data

How the results depend on the processing

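The number of carbonic anhydrases called in mixed against pure WT cells went from 1 to 0 at a minimum count of 50 and ranged from 0 to 1 with each library left out. In pure cancer against pure WT cells it went from 0 to 1 (Car12) with no filter and with only the 4 libraries compared, and ranged from 0 to 1 with each library left out. In mixed cancer against mixed WT cells it went from 1 to 0 at a minimum count of 50 and to 2 with transcript counts, and ranged from 0 to 1 with each library left out. In mixed against pure cancer cells the log2 fold change of Car9 turned to 0.0325 with barcode counts and 0.0222 with transcript counts and ranged from -0.85 to 1.88 with each library left out, and that of Car13 ranged from -0.25 to 1.32. The cause was not tested. The log2 fold change of Car2 in mixed against pure WT cells ran from 3.02 to 3.58 over 8 alternatives and from 2.96 to 4.21 with each library left out. Hypoxia-inducible genes called higher in mixed against pure WT cells ranged from 0 to 5. The median of all tested genes in the difference of the mixing changes, -0.17, moved by 0.11 with median-of-ratios factors, by 0.20 at a minimum count of 50 and by -0.19 with no filter, and lay between -0.86 (without A06) and 0.04 (without A04) with a library left out. No paired analysis was possible because the labels name wells only and give no number that ties a library of one group to one of another. Mixed WT and mixed cancer cells were both sorted from mixed cultures, so their libraries may share a culture. The comparisons treated them as independent. With 2 libraries a group and few reads, changes of several fold in Car8, Car12 and Car13 can be missed.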
